A study of Mus musculus with 10 samples.

Results

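Of 10 genes of prostaglandin and leukotriene synthesis, breakdown and reception, 9 were measured among the 19505 genes of the array. They were chosen by name, as cyclooxygenases (Ptgs1, Ptgs2), the inducible prostaglandin E synthase (Ptges), the breakdown enzyme Hpgd, the PGE2 receptors Ptger1 to Ptger4, 5-lipoxygenase (Alox5) and its activating protein (Alox5ap), and each was read from the probe set that the probe annotation ties to its symbol. Ptgs1 was not analysed here. M-Wnt, a mouse mammary cancer cell line of mesenchymal, claudin-low type, formed the tumors, and 50000 cells went into the 4th mammary fat pad of adult female C57BL6J mice fed the AIN-93G diet. All of the cells, those of the Ctrl tumors too, had been transduced with a doxycycline-inducible shRNA against pyruvate carboxylase (PC). Mice of the 5 shPC tumors drank water with 150 µg/ml doxycycline and mice of the 5 Ctrl tumors drank standard water, so an effect of the drug and one of the knockdown cannot be told apart. RNA of the whole tumor, host cells included, was hybridized to 1 Clariom S array per tumor.

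Prostaglandins and leukotrienes are short-lived lipid signals made from arachidonic acid, a fatty acid that phospholipases free from membranes. Cyclooxygenases turn it into an unstable intermediate from which Ptges makes PGE2, and 15-hydroxyprostaglandin dehydrogenase, encoded by Hpgd, inactivates PGE2. The receptors EP1 to EP4, encoded by Ptger1 to Ptger4, pass the signal on, EP2 and EP4 by raising cyclic AMP, EP3 mostly by lowering it and EP1 through calcium. 5-Lipoxygenase, which needs the membrane protein FLAP encoded by Alox5ap, opens the other branch, which leads to leukotrienes and is found mainly in myeloid cells. In mammary tumors PGE2 is known for damping T cells and NK cells and for its receptors on both tumor and immune cells.

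None of the 9 genes passed the adjusted threshold of 0.05 in limma over all genes, and neither did any other gene (0% of genes called lower and 0% called higher). Over the 19505 genes, 1219 had a lower and 1521 a higher mean at an unadjusted p under 0.05, and with trended and robust variances limma called 5 genes in each direction, none of them among the 9. At an unadjusted p under 0.05, 4 of the 9 were lower in the shPC tumors, Ptges, Ptger1, Ptger2 and Ptger4, against 6.25% of all genes. One gene, Hpgd, was higher, against 7.80% of all genes. Ptger2, the gene of the EP2 receptor, was the only one of the 9 whose groups did not overlap. It was lower in every shPC tumor, as were 1.79% of all genes, and 0 of the 9 were higher without overlap, against 1.82% of all genes. The median difference over the 9 genes, shPC minus Ctrl on the log2 scale, was -0.63, beside 0.04 over all genes. Differences in the text are on this scale, errors of differences are standard errors from limma, and folds rest on the values being log2, a base that is not certain.

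The arrays correlated with each other at r of 0.960 to 0.993, the lowest r being that of Ctrl 1 with shPC 5. The median over all probe sets was 6.785 in shPC 5 and 7.01 to 7.17 in the other tumors. Pcx, the target of the shRNA, had 10.43, 7.24, 11.01, 7.79 and 9.54 in Ctrl 1 to 5 and 9.91, 4.69, 9.39, 4.49 and 5.15 in shPC 1 to 5. In shPC 1 and shPC 3 it lay within the Ctrl range (adjusted p = 0.378 from limma). The signal of adipocyte markers, given below by tumor, was high and low in the same tumors as Pcx (r = 0.989 over the 10 tumors with group means removed), and with it as a covariate the difference of Pcx went from -2.48 to -0.283. The level of Pcx in the tumor cells alone was not measured. Mesenchymal markers, listed for the M-Wnt line, gave signal in every tumor. The mean log2 signal of the 6 measured genes (among them Vim and Zeb1) was 13.14 to 13.57 in Ctrl and 13.46 to 13.93 in shPC tumors. Whole-tumor values do not tell which cells this signal came from. Of these genes only Cdh2 had groups that did not overlap. It was higher in shPC, at 1.01 (adjusted p = 0.235 from limma), a gap seen for 1.82% of all genes. Ctrl 1 and shPC 5 stood apart. Ctrl 1 had the skin keratins Krt14 at 14.67 and Krt5 at 14.24 and the muscle actin Acta1 at 12.07. The same keratins were at 9.04 and 8.41 in shPC 4 and at 5.85 or less in the remaining tumors. In shPC 5 the mean of the 7 measured T cell markers was 6.88, beside 9.63 to 10.79 in the other shPC tumors. Of the 9 genes, 5 had their lowest and 4 their highest value of all 10 tumors in shPC 5, with Ptger3 as low in shPC 2. Without both tumors the differences were -1.035 for Ptger2, -0.72 for Ptger1, -0.59 for Ptges, -0.52 for Ptger4 and -0.35 for Ptger3. They were 0.70 for Hpgd, 0.35 for Alox5, 0.33 for Ptgs2 and -0.11 for Alox5ap. At an unadjusted p under 0.05, 3 of the 9 genes were then lower and 0 higher, against 4.99% and 4.66% of all genes. The sources used here do not state how many tumors each mouse carried, so the p-values describe variation among tumors that may not all be from separate animals.

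Short stretches near the start of 4 of the genes are shown. Those of Ptgs2, Hpgd and Ptger4 hold sequence elements searched for. That of Ptger2 holds none and is set beside Ptger4 because the receptors differ in them. RefSeq windows of 300 bases around the start (GRCm38.p6) were held for 7 of the 9 genes, all but Ptger1 and Alox5ap. The motifs were picked with the expression values known. In the start region of Ptgs2 the capitals mark a cyclic AMP response half-site, CGTCA, which overlaps an E-box, CACGTG, at chr1:150100034-150100063 on the plus strand, and in the upstream stretch the palindrome TTGCGCAA, a C/EBP-type element, at chr1:150099951-150099980. For Hpgd (chr8:56294544-56294573, plus strand) they mark the letters TATAAA, which begin at base 5 after the RefSeq start and so are not where a TATA box of that start would lie.
Ptgs2 start: gtcaccactaCGTCACGTGgagtccgcttt
Ptgs2 upstream: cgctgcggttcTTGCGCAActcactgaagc
Hpgd start: cacggagtgggcTATAAAagctgctgcggc
Ptger2 upstream: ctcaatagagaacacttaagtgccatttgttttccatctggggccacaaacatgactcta
Ptger4 upstream: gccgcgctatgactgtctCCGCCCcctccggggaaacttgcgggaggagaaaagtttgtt
The last 2 lines give the 60 bases before the start of Ptger2 (chr14:44988051-44988110, plus strand) and of Ptger4 (chr15:5244188-5244247, minus strand), and the capitals in Ptger4 mark a GC box, GGGCGG read on the other strand. Searched on both strands, CGTCA was in 20.8% of the 32851 windows of this length, CACGTG in 7.15%, TTGCGCAA in 0.183%, TATAAA in 13.6% and GGGCGG in 35.7%. The whole window of Ptger4 held 4 GC boxes and that of Ptger3 held 3, whereas the Ptger2 window held none of the 5 motifs. These matches describe the letters alone.

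Ptgs2 encodes cyclooxygenase-2, the inducible enzyme that opens the prostaglandin branch. Its log2 signal in Ctrl 1 to 5 was 10.71, 11.04, 10.17, 10.94 and 10.98, and in shPC 1 to 5 it was 10.99, 11.33, 11.06, 11.06 and 12.26. The tumors shPC 2 to 5 exceeded every Ctrl tumor, while shPC 1 lay within the Ctrl range. The means were 10.77 ± 0.36 (SD, n = 5) and 11.34 ± 0.53 (SD, n = 5). Their difference was 0.57 ± 0.26, with an unadjusted p of 0.0507 and an adjusted p of 0.356 from limma. An exact permutation test over every division of the tumors 5 against 5 gave p = 0.0159 (two-sided, as throughout, with 0.00794 as the smallest p it can give). Without shPC 5, the highest tumor, the difference was 0.34.

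Ptges, which makes PGE2 from the product of the cyclooxygenases, had the opposite sign. The Ctrl tumors 1 to 5 had 10.01, 9.03, 9.22, 8.40 and 9.07, and the shPC tumors 1 to 5 had 9.20, 7.69, 8.60, 7.88 and 6.93. In shPC 2, 4 and 5 it lay below all Ctrl tumors, while shPC 1 and shPC 3 were within the Ctrl range. The means of 9.15 ± 0.58 (SD, n = 5) and 8.06 ± 0.87 (SD, n = 5) differed by -1.09 ± 0.41, which is 2.12-fold lower in shPC (limma p = 0.0214, adjusted p = 0.276, exact permutation p = 0.0635). Left-out tumors moved the difference between -1.37 and -0.80.

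Hpgd, the enzyme that inactivates PGE2, was the member with the largest positive difference. Ctrl 1 to 5 had 7.12, 6.94, 7.50, 7.94 and 7.98, and shPC 1 to 5 had 8.72, 9.02, 7.72, 7.71 and 9.83. The shPC tumors were split, with 1, 2 and 5 above all Ctrl tumors and 3 and 4 inside their range. The means were 7.50 ± 0.47 (SD, n = 5) and 8.60 ± 0.90 (SD, n = 5), 2.15-fold higher in shPC, a difference of 1.10 ± 0.40 (limma p = 0.0176, adjusted p = 0.262, exact permutation p = 0.0635). It was 0.80 without shPC 5. Thus Ptgs2 and Hpgd had positive differences and Ptges a negative one, and none of the 3 enzymes separated the groups.

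**Figure D1:**
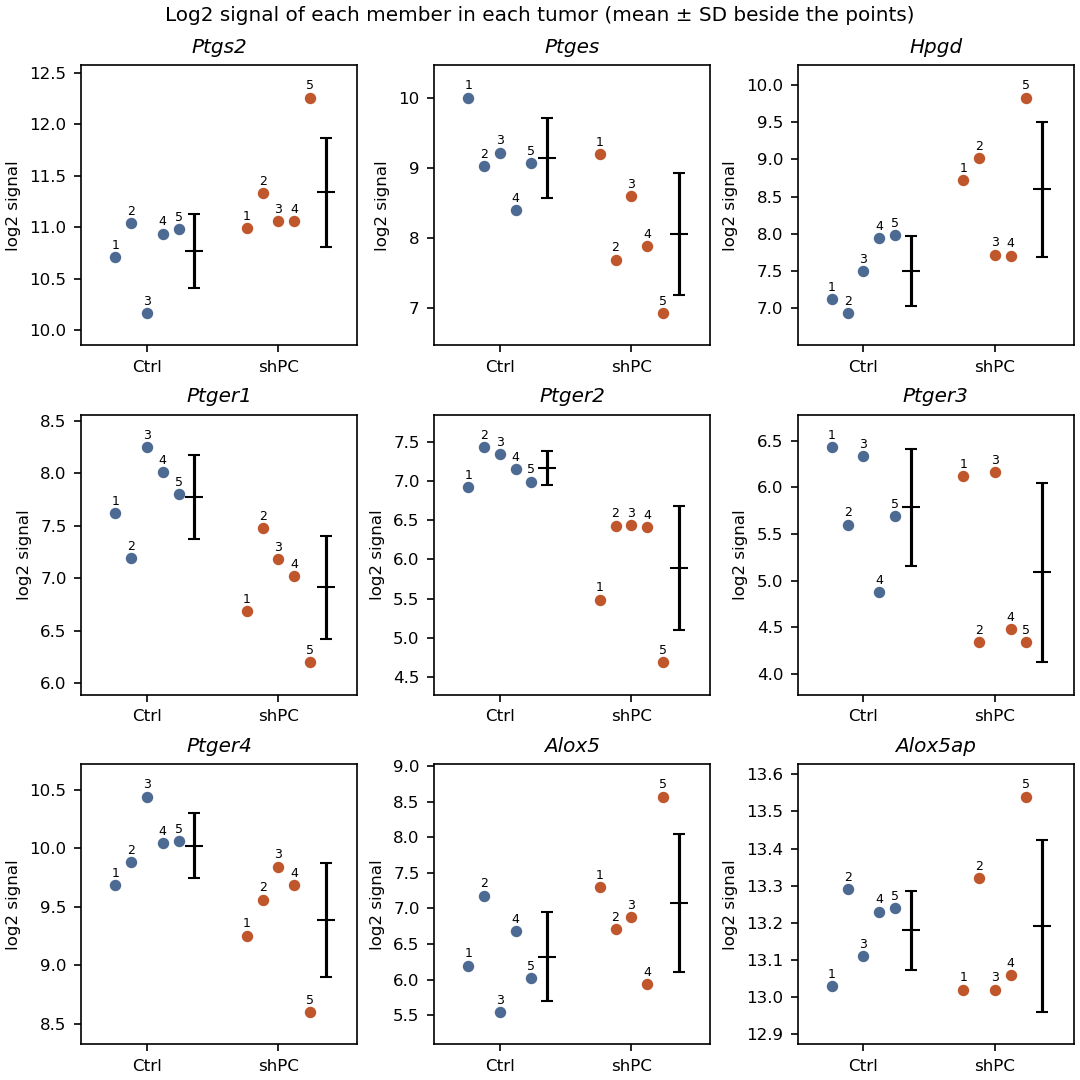
Log2 signal (vertical axes, scaled per gene) of the 9 genes in the 5 Ctrl tumors (blue) and the 5 shPC tumors (orange), numbered by tumor, with the group mean ± SD as a black bar. Ptger2 is the panel in which the groups do not overlap, and shPC 5 is at the upper or lower end of every panel, in Ptger3 level with shPC 2.

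Ptger2 encodes EP2, a receptor that raises cyclic AMP. It had 6.92, 7.43, 7.34, 7.15 and 6.99 in Ctrl 1 to 5 and 5.49, 6.43, 6.44, 6.41 and 4.69 in shPC 1 to 5. All shPC tumors lay below all Ctrl tumors, with shPC 2, 3 and 4 close together and shPC 1 and 5 further down. The means were 7.17 ± 0.22 (SD, n = 5) and 5.89 ± 0.78 (SD, n = 5), 2.42-fold lower in shPC, with a difference of -1.27 ± 0.32 and a 95% interval of -1.98 to -0.56. The unadjusted limma p of 0.00222 and the exact permutation p of 0.00794 were the smallest among the 9 genes, yet the adjusted p was 0.194. It was between -1.41 and -0.97 with each tumor left out in turn.

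Ptger4 encodes EP4, the other receptor that raises cyclic AMP. Its values were 9.68, 9.88, 10.44, 10.04 and 10.06 in Ctrl 1 to 5 and 9.25, 9.56, 9.84, 9.68 and 8.60 in shPC 1 to 5. The tumors shPC 1, 2 and 5 lay below all Ctrl tumors, shPC 4 equalled the lowest of them and shPC 3 lay just above it. The difference was -0.63 ± 0.24 between means of 10.02 ± 0.28 (SD, n = 5) and 9.39 ± 0.49 (SD, n = 5), 1.55-fold lower in shPC (limma p = 0.0206, adjusted p = 0.273, exact permutation p = 0.0238). EP2 and EP4 thus had differences of the same sign, and shPC 5 was the lowest tumor for both.

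Ptger1 encodes EP1, which acts through calcium. Ctrl 1 to 5 had 7.62, 7.19, 8.25, 8.01 and 7.80, and shPC 1 to 5 had 6.69, 7.48, 7.18, 7.02 and 6.20. All shPC tumors but shPC 2 lay below all Ctrl tumors, shPC 3 only just, and shPC 2 was inside the Ctrl range. The means of 7.77 ± 0.40 (SD, n = 5) and 6.91 ± 0.49 (SD, n = 5) differed by -0.86 ± 0.26, 1.82-fold lower in shPC (limma p = 0.00675, adjusted p = 0.221, exact permutation p = 0.0159).

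Ptger3 encodes EP3, which mostly lowers cyclic AMP and is abundant in fat. It had 6.43, 5.60, 6.33, 4.88 and 5.69 in Ctrl 1 to 5 and 6.12, 4.34, 6.16, 4.48 and 4.34 in shPC 1 to 5. shPC 1 and 3 matched the upper Ctrl tumors and shPC 2, 4 and 5 lay below all Ctrl tumors. The 30th percentile of the arrays of shPC 2, 4 and 5 was 4.07 to 4.08, so their Ptger3 signal was near background. The difference of -0.70 ± 0.44 between means of 5.79 ± 0.63 (SD, n = 5) and 5.09 ± 0.96 (SD, n = 5) did not exceed the spread between tumors (limma p = 0.144, adjusted p = 0.503, exact permutation p = 0.198). The interval of -1.67 to 0.28 leaves the sign unsettled. All 4 PGE2 receptors had lower means in shPC tumors, and for EP3 the spread within groups was widest.

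**Figure D2:**
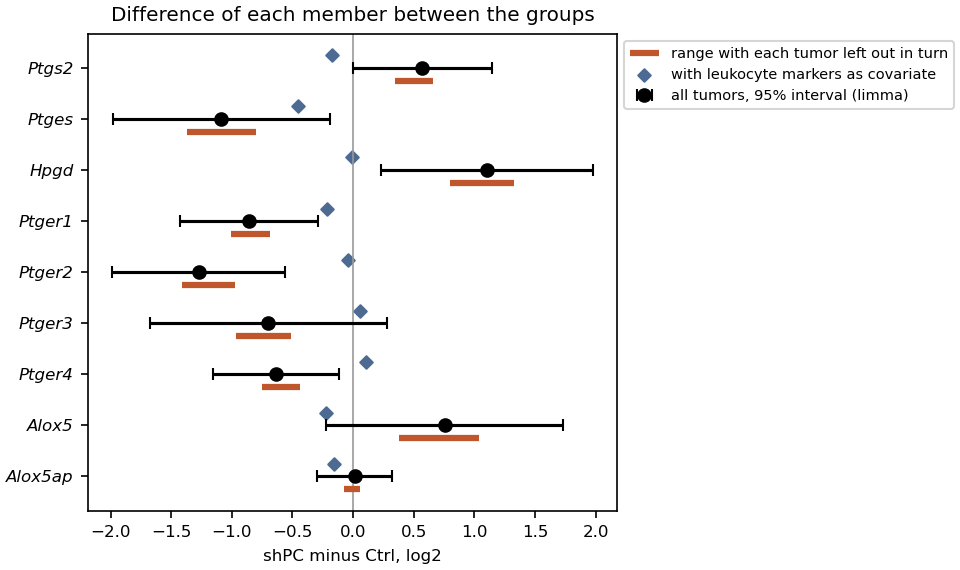
Difference between shPC and Ctrl tumors in log2 (horizontal axis) for each gene, with the limma estimate and its 95% interval (black), the range when each tumor is left out in turn (orange bar) and the estimate with the mean of leukocyte markers per tumor as a covariate (blue diamond). The black points run from -1.27 for Ptger2 to 1.10 for Hpgd, and the diamonds lie between -0.45 for Ptges and 0.11 for Ptger4.

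Alox5, the 5-lipoxygenase that starts leukotriene synthesis, had 6.20, 7.18, 5.55, 6.68 and 6.02 in Ctrl 1 to 5 and 7.30, 6.71, 6.88, 5.94 and 8.57 in shPC 1 to 5. In shPC 1 and shPC 5 it exceeded all Ctrl tumors, by little in shPC 1 and by more than 1 log2 unit in shPC 5. The means were 6.33 ± 0.63 (SD, n = 5) and 7.08 ± 0.97 (SD, n = 5), a difference of 0.75 ± 0.45 (limma p = 0.118, adjusted p = 0.473, exact permutation p = 0.183). It was 0.38 without shPC 5. Its partner Alox5ap had 13.03, 13.29, 13.11, 13.23 and 13.24 in Ctrl 1 to 5 and 13.02, 13.32, 13.02, 13.06 and 13.54 in shPC 1 to 5. The ranges of the groups overlapped almost fully, with means of 13.18 ± 0.11 (SD, n = 5) and 13.19 ± 0.23 (SD, n = 5). The difference of 0.01 ± 0.14 had an interval of -0.29 to 0.32 (limma adjusted p = 0.979, exact permutation p = 0.921), and its sign turned in 10 of 22 alternatives.

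Within the groups the genes varied in part together. With the group means removed, Ptger2 and Ptger4 correlated at r = 0.87 over the 10 tumors, Ptger1 and Ptger4 at 0.83, and Ptger1 and Ptger2 at 0.68. Ptges correlated with Ptger3 at 0.89 but with Ptger2 at 0.21 only. Ptgs2 correlated with Alox5ap at 0.87 and with Alox5 at 0.80, and with Ptger4 at -0.79. All of these pairs share the same arrays and the far values of shPC 5, and they are given as a description. Ptges and Ptger3 were both low in Ctrl 4 and in shPC 2, 4 and 5.

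**Figure D3:**
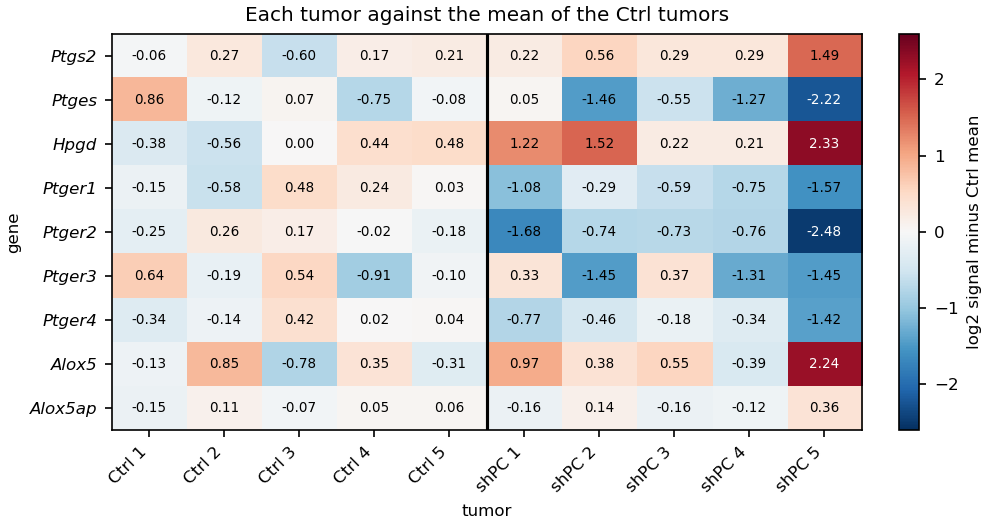
Log2 signal of each gene (rows) in each tumor (columns) minus the mean of the 5 Ctrl tumors, in colour and as a number. The shPC 5 column holds the values furthest from the Ctrl mean, from -2.48 for Ptger2 to 2.33 for Hpgd, with Ptger3 at -1.45 in shPC 2 as well. Ptger2 is below 0 in every shPC tumor, and Ptger3 is above 0 in shPC 1 and shPC 3.

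Among the 13772 other genes with enough signal, those most like Ptger2 over the 10 tumors after removal of the group means were Rnase6, a secreted ribonuclease (Pearson r = 0.984), Gm3558, an unnamed gene model (0.982), and Aspa, aspartoacylase (0.972). For Ptger1 they were Ppfia4 (0.966), Negr1 (0.963) and Lpxn (0.956). For Ptgs2 they were Ddx31 (0.954), Spcs3 (0.951) and Morf4l2 (0.949). The genes were picked as the highest of all, and without shPC 5 their r lay between 0.875, for Morf4l2, and 0.969, for Rnase6.

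Markers of leukocytes differed between the groups as well. The mean of 8 general leukocyte genes was 13.99 to 14.40 in Ctrl and 13.30 to 13.83 in shPC tumors, with no overlap, a difference of -0.57 (exact permutation p = 0.00794, the smallest possible). All 8 had lower means, against 44.9% of all genes, and 6 of them at an unadjusted limma p under 0.05, against 6.25%. Among these were Ptprc, which encodes CD45, at -0.89, and Itgb2, the beta-2 integrin, at -0.99. In whole tumors fewer cells of a type and less RNA per cell cannot be told apart. With that mean as a covariate in limma the differences were -0.04 for Ptger2, -0.22 for Ptger1, 0.11 for Ptger4, -0.45 for Ptges, -0.17 for Ptgs2 and -0.23 for Alox5, each with an adjusted p of 0.9999. An adjusted p this high was found over all genes with the covariate, so it is not particular to these. At an unadjusted p under 0.05, 1.47% of all genes were then lower and 1.65% higher. The part of leukocytes in these differences was not tested, and their mean cannot be told apart from the group since it does not overlap between the groups.

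The single leukocyte types differed in their values. The mean of 9 macrophage genes was 14.71 to 14.92 in Ctrl and 14.41 to 15.02 in shPC tumors, a difference of -0.11 (exact permutation p = 0.365), and 7 of the 9 had lower means. C1qa, a complement subunit, was lower without overlap at -0.32, as were 1.79% of all genes. The Fc receptor gene Fcgr1 stood at -0.37 and the mannose receptor gene Mrc1 at 0.83, with 16.17 in shPC 5. The mean of the 8 genes other than Mrc1 was 14.84 to 15.04 in Ctrl and 14.40 to 14.87 in shPC tumors, a difference of -0.228. Macrophages are a known source of Alox5ap and Alox5. The mean of 7 T cell genes was 10.58 to 11.95 in Ctrl and 6.88 to 10.79 in shPC tumors, a difference of -1.52 (exact permutation p = 0.0317), or -0.86 without shPC 5. Dendritic cell genes, 8 measured, had means of 8.63 to 8.94 and 7.14 to 8.54 with no overlap, a difference of -0.67 (exact permutation p = 0.00794), or -0.42 without shPC 5. The 5 B cell genes, 2 of them dim, had 5.93 to 7.38 and 4.82 to 5.99, a difference of -0.97 (exact permutation p = 0.0238). Neutrophil genes, 7 measured and 3 of them dim, had means of 5.01 to 6.31 and 4.41 to 5.10, a difference of -0.84 (exact permutation p = 0.0238), and the 9 mast cell genes, 4 of them dim, had 5.25 to 5.75 and 4.82 to 5.86. Neutrophils and mast cells are known to use 5-lipoxygenase. T cells, NK cells and myeloid cells all carry EP2 and EP4, and the 5 NK cell genes had means of 8.78 to 10.21 in Ctrl and 6.07 to 8.79 in shPC tumors, a difference of -1.42 (exact permutation p = 0.0159).

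Fat markers were low in the same tumors as Ptges and Ptger3. The mean of 8 adipocyte genes, Adipoq and Plin1 among them, was 12.45, 10.14, 13.64, 9.67 and 11.73 in Ctrl 1 to 5 and 12.72, 7.25, 11.79, 6.78 and 7.73 in shPC 1 to 5, a difference of -2.27 (exact permutation p = 0.159). The shPC tumors 1 and 3, in which Ptges and Ptger3 were highest, had the most fat signal of their group. With the adipocyte mean as a covariate Ptger3 had a difference of 0.07 and Ptges of -0.50, while Ptger2 stayed at -1.32 and Hpgd at 0.96. The mean of 7 lymph node genes, 2 of them dim, was 6.48 to 7.15 in Ctrl and 4.95 to 6.62 in shPC tumors, a difference of -0.72 (exact permutation p = 0.0317), or -0.45 without shPC 5. With it as a covariate Ptger2 had a difference of -0.535, Ptger1 of -0.44, Ptger4 of -0.18, Ptges of -0.70, Hpgd of 0.47, Ptgs2 of 0.0771 and Alox5 of -0.0909. The part of fat and of lymph node tissue in these differences was not tested.

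**Figure D4:**
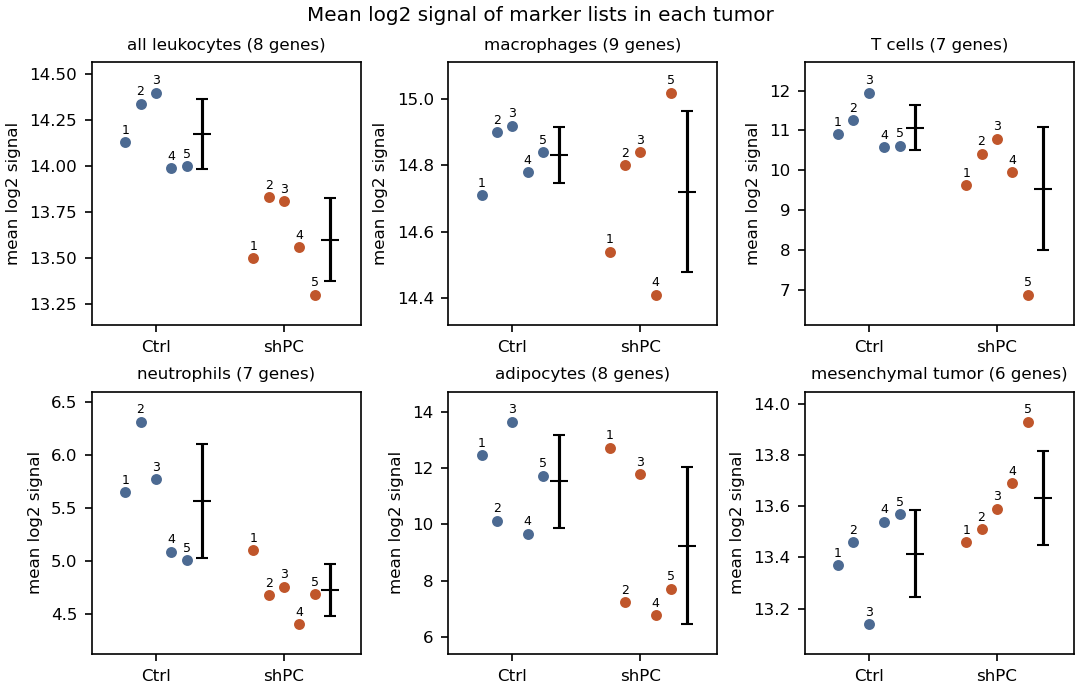
Mean log2 signal of 6 lists of marker genes (vertical axes, scaled per list) in the 5 Ctrl tumors (blue) and the 5 shPC tumors (orange), numbered by tumor, with mean ± SD in black. The general leukocyte list does not overlap between the groups, from 13.99 upward in Ctrl and up to 13.83 in shPC, and shPC 5 is the lowest for T cells. Its place at the top of the macrophage panel rests on Mrc1, since the other 8 genes have a mean of 14.87 there, below Ctrl 2, Ctrl 3 and Ctrl 5.

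Around the 9 genes, 80 of 90 further genes of the pathway were measured, and none passed the adjusted threshold. In them 11 were lower and 5 higher in shPC tumors at an unadjusted p under 0.05, against 6.25% and 7.80% of all genes. These shares apply to each list that follows when all tumors are used. Without Ctrl 1 they were 5.87% and 6.13%. A negative difference was found in 60 of the 80 genes (75%) and a positive one in 20. Over all genes 8754 (44.9%) had a negative and 10751 a positive difference. The median was -0.27, beside 0.04 over all genes.

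The arachidonate release list had 23 measured genes, not all of them enzymes that free arachidonate. In this list 3 were lower and 3 higher at this p, with a median of -0.16. Without Ctrl 1 the median was -0.0455 and 1 gene was lower. Pla2g4a, the cytosolic phospholipase A2 that supplies both branches, had 12.09, 12.18, 11.60, 12.46 and 11.83 in Ctrl 1 to 5 and 12.37, 12.42, 12.20, 12.56 and 12.93 in shPC 1 to 5, a difference of 0.46 (adjusted p = 0.310 from limma). The tumors shPC 4 and shPC 5 exceeded all Ctrl tumors and the other 3 lay within their range. Pla2g6, the calcium-independent phospholipase, had a difference of 0.59 (adjusted p = 0.221) and the dim secreted enzyme Pla2g3 of 0.57. On the negative side Plaat3, a phospholipase of fat tissue, stood at -0.76 (adjusted p = 0.197), Faah, which cleaves anandamide to arachidonic acid, at -0.74, or -0.48 without shPC 5, and Pla2g4c at -0.56, or -0.35 without Ctrl 1.

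The other prostanoid synthases, 9 genes measured, had 1 lower and 0 higher and a median of -0.06. That gene was Ptgis, prostacyclin synthase, with a difference of -0.75 (adjusted p = 0.352 from limma). Thromboxane synthase Tbxas1 stood at -0.30, and Akr1c18, an aldo-keto reductase that inactivates progesterone, at -1.23, or -0.61 without Ctrl 1, where it was 9.45. Transport and breakdown, 4 genes, had 1 lower and 0 higher with a median of -0.23. There Ptgr2, a prostaglandin reductase, stood at -0.42, or -0.28 without Ctrl 3, and the prostaglandin importer Slco2a1 at -0.63, or -0.41 without Ctrl 1, beside -0.04 for the exporter Abcc4.

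Of 6 other prostanoid receptor genes 0 were lower and 2 higher, with a median of 0.02. Without Ctrl 1 there were 1 lower and 0 higher. Ptgdr2, the receptor DP2 for prostaglandin D2, had 3.6 to 4.48 in Ctrl and 3.76 to 5.35 in shPC tumors. Its difference was 0.70 (adjusted p = 0.303 from limma), with shPC 5 alone below the Ctrl mean. The 30th percentile of the arrays was 4.07 to 4.18, so several of these values were near or below it. Ptgfrn, a regulator of the prostaglandin F receptor, stood at 0.36 and that receptor, Ptgfr, at -1.27 (unadjusted p = 0.0509).

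On the leukotriene side, the 7 measured synthases had 1 lower and 0 higher and a median of -0.07. Dpep2, a dipeptidase that turns leukotriene D4 into E4, stood at -0.51 (adjusted p = 0.322 from limma), the glutathione transferase Mgst2 at -0.56, or -0.29 without shPC 5, and the transpeptidase Ggt5 at 0.27, or 0.17 without shPC 3 and 0.43 without shPC 5. Of 4 receptors 1 was lower and 0 higher, with a median of -0.36. Cysltr2, the second receptor for cysteinyl leukotrienes, had 7.99, 8.20, 8.52, 8.68 and 8.16 in Ctrl 1 to 5 and 6.54, 8.10, 7.74, 7.92 and 6.17 in shPC 1 to 5. Its difference was -1.02 ± 0.36 (adjusted p = 0.260), and shPC 2 alone lay within the Ctrl range. Cysltr1 stood at -0.08 and the dim Ltb4r1, the receptor of leukotriene B4, at -0.64, or -0.34 without Ctrl 2. Without that tumor the median of the receptors was -0.16.

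The 6 other lipoxygenases had 0 lower and 0 higher at this p and a median of -0.65, which was -0.15 without Ctrl 1, and 4 of the 6 were dim. Alox15, the 12/15-lipoxygenase of mouse macrophages and eosinophils, stood at -0.82 (adjusted p = 0.358 from limma), Alox12 of platelets at -0.35, or -0.57 without Ctrl 3, and the epidermal Alox12e at -1.24, or -0.46 without Ctrl 1. Ctrl 1, the tumor with the highest skin keratins, had Alox12e at 8.0, Aloxe3 at 10.16 and Alox12b at 8.58. No other tumor had more than 4.91 in any of these skin lipoxygenases. The skin phospholipase Pla2g2f was at 9.77 there and at 3.21 or less elsewhere.

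Of 10 cyclic AMP targets downstream of EP2 and EP4, 2 were lower (6.25% of all genes) and 0 higher (7.80% of all genes), with a median of -0.38. A negative difference was found in 8 of them, against 44.9% of all genes, and a positive one in 2. The largest positive difference was that of Per1, 0.67. The nuclear receptor genes Nr4a3 and Nr4a2, known early targets of cyclic AMP, stood at -1.44 (adjusted p = 0.277 from limma) and -0.83 (adjusted p = 0.337), and the phosphodiesterase Pde4b at -0.70. Without shPC 5 Nr4a3 was -0.92 and Pde4b -0.42, and Nr4a2 was -0.52 without Ctrl 3. The same genes answer to many other signals.

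The inducers and mRNA regulators of Ptgs2, 11 genes measured, had 2 lower and 0 higher, against 6.25% and 7.80% of all genes, with a median of -0.43, or -0.28 without Ctrl 1. Tnf, a cytokine that induces Ptgs2, had 8.63, 9.57, 10.01, 9.94 and 9.70 in Ctrl 1 to 5 and 8.37, 8.67, 8.22, 8.53 and 7.76 in shPC 1 to 5. Only Ctrl 1 overlapped the shPC range, and the difference was -1.26 ± 0.27 (adjusted p = 0.185 from limma). Il1b stood at -1.12 (adjusted p = 0.377) and Zfp36, whose product speeds the decay of the Ptgs2 mRNA, at -0.82 (adjusted p = 0.249). Elavl1, whose product HuR stabilises that mRNA, had its groups apart, at 12.21 to 12.37 in Ctrl and 12.38 to 12.86 in shPC tumors, a difference of 0.25 (adjusted p = 0.406). Such a gap was seen for 1.82% of all genes, and Elavl1 was singled out after its values were seen.

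**Figure D5:**
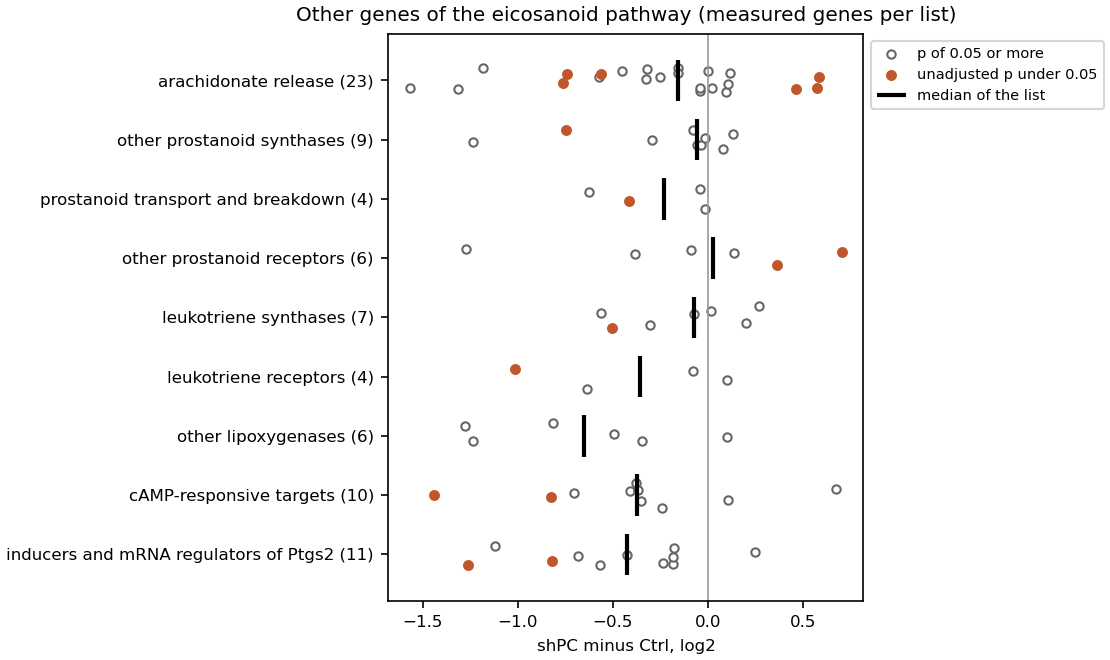
Difference between shPC and Ctrl tumors in log2 (horizontal axis) of 80 further genes of the pathway, by list, with the number of measured genes in brackets, filled points for an unadjusted limma p under 0.05, open points for the others and a black line at each list's median. The median furthest below 0 is that of the other lipoxygenases, -0.65 with all tumors and -0.15 without Ctrl 1, and that of the other prostanoid receptors is 0.02.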

How the data were processed

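Whole tumors were measured on Clariom S mouse arrays, 1 per tumor, 5 shPC and 5 Ctrl, with groups taken from the labels. The authors labelled RNA with the WT PLUS kit and used Transcriptome Analysis Console. The values the authors deposited are read as log2 signals. Their normalization and log base are not given in the sources used here, and the highest value per array, 19.04 to 19.19, is above a 16-bit scanner's log2 range. The probe annotation gave 1 gene for 19572 of the 22206 probe sets, several genes for 0, and held no entry for 2634. The probe set with the highest mean was kept per gene (55 genes had several), which left 19505 genes. Each of the 9 measured genes had 1 probe set.

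All genes were fitted with limma 3.58.1 in R 4.3.3 (shPC minus Ctrl) with Benjamini-Hochberg adjustment and a threshold of 0.05. Permutation tests were exact and two-sided, over every split of the 10 tumors into groups of 5. A gene is called dim unless above the 30th percentile of the array in at least 5 arrays. The genes and lists were chosen with earlier results of these data known. Named were all members, the 3 genes with the smallest p of each list, any list gene with an unadjusted p under 0.05, the 3 genes most like Ptger1, Ptger2 and Ptgs2, and Pcx. Others named (Elavl1, Per1, Aloxe3, Alox12b, Pla2g2f and markers) were chosen after their values were seen. The alternatives were quantile normalization, median centring, a filter on low values, the methods' t-test, array weights, trended and robust variances (statmod 1.5.0), probe set means, the replicate block, 3 marker covariates and each tumor left out. Leaving out both Ctrl 1 and shPC 5, list values without single tumors, macrophage genes without Mrc1 and the fat covariate for Pcx were chosen after seeing the data. The route was also run on simulated data with independent noise for each gene. Those data lack the correlated genes and outlying tumors of these arrays, so the run does not show how the fit handles them. The number of arrays limits the precision.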

Additional observations from a re-analysis of the deposited data

Results flagged for a closer look

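In 5 of 78 gene and group pairs (39 genes) 1 tumor lay further from the other 4 than Dixon's 95% limit, which chance gives for about 1 pair in 20, and the ratio given is the gap to the nearest tumor over the group's range. Ptgs2 was 12.26 in shPC 5 and at most 11.33 in the other shPC tumors (ratio 0.732). Nr4a2 was 11.36 in Ctrl 3 and at most 10.05 in the other Ctrl tumors (ratio 0.72). Ltb4r1, dim in most tumors, was 3.95 in shPC 2 and at most 3.04 in the other shPC tumors (ratio 0.722). Alox12e was 8.0 in Ctrl 1, the tumor with the highest skin keratins, and at most 4.53 in the other Ctrl tumors (ratio 0.801). Alox12, also dim, was 2.96 in Ctrl 3 and at least 3.97 in the other Ctrl tumors (ratio 0.821).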

How the results depend on the processing

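Of 198 values of the 9 genes under 22 alternatives 181 kept their sign, 17 turned it and none passed the adjusted threshold (adjusted p of 0.1155 to 0.9999). With the leukocyte mean as a covariate the difference was -0.17 for Ptgs2, -0.011 for Hpgd, 0.0581 for Ptger3, 0.11 for Ptger4, -0.23 for Alox5 and -0.15 for Alox5ap, with adipocytes 0.0719 for Ptger3 and -0.0978 for Alox5ap, and with lymph node genes -0.0909 for Alox5 and -0.12 for Alox5ap. Alox5ap was also -0.0183 after quantile normalization, -0.0177 with array weights, -0.11 without both Ctrl 1 and shPC 5, and -0.075 to 0.055 with each tumor left out. The median over the 9 genes was -0.15 with leukocytes, -0.10 with adipocytes and -0.18 with lymph node genes. At an unadjusted p under 0.05 the count of members lower was 0, 2 and 1 with these 3 covariates and 3 to 5 with tumors left out. Over all genes the share called lower fell too, to 1.47%, 4.02% and 2.09% with these covariates. It was 4.9% to 6.86% with tumors left out. The count higher was 0 with each covariate (1.65%, 4.78% and 2.68% of all genes) and without both tumors (4.66%). It was 2 after median centring, with trended robust variances and with the replicate block (11.2%, 8.54% and 7.93% of all genes). With tumors left out it was 1 to 3 (5.75% to 8.73% of all genes). Members lower without overlap numbered 2 without both tumors and 1 to 2 with single tumors left out, and members higher 0 to 1. The share of all genes without overlap was not counted in these settings. Smaller groups separate more easily for any gene, so these counts have no background and are not read as a result. Median centring moved the median of all genes from 0.036 to 0.135, and unadjusted calls from 6.25% lower and 7.80% higher to 4.37% and 11.2%. Over all genes, adjusted calls were 0 in both directions with the methods' t-test, 5 higher and 5 lower with trended robust variances, 1 lower after median centring, and 0 to 1 higher and 0 to 4 lower with tumors left out (1 higher without shPC 2, 4 lower without shPC 4, 1 lower without Ctrl 4). The cause of these shifts was not tested.

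Pathway genes turned sign in 22 of 656 values. With the leukocyte covariate Pla2g4a was -0.0697, Nr4a3 0.85, Nr4a2 0.40, Pde4b 0.73, Zfp36 0.14, Il1b 0.90, Cysltr2 0.0822, Ltb4r1 0.13, Mgst2 0.45, Alox15 0.0879, Ptgfr 0.62 and Abcc4 0.21, and with lymph node genes Pde4b was 0.0804, Mgst2 0.0714 and Abcc4 0.15. Median centring gave 0.023 for Cysltr1 and 0.057 for Abcc4, array weights 0.0047 for Abcc4, and tumors left out -0.18 to 0.0495 for Cysltr1 and -0.13 to 0.0475 for Abcc4.

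The labels number the tumors 1 to 5 in both groups and do not say that equal numbers are pairs. Same-numbered tumors correlated at 0.044, 0.109, 0.281, 0.074 and 0.091 once group means were removed. All of these r were positive, and 3 of 5 tumors correlated best with their own number. Whether the numbers are pairs is not settled by these values. The main fit was unpaired, and the replicate block was run as an alternative. With the replicate block, unadjusted p was under 0.05 for 5 members with negative and 2 with positive differences, against 7.51% and 7.93% of all genes. The members beyond those of the main fit were Ptger3 and Ptgs2. With the block, 0 genes were called at the adjusted threshold.

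With 5 arrays a group every value has limited precision, and signal near background limits the dim genes most.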
